A study of Mus musculus with 15 samples.

Results

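Mouse embryonic fibroblasts of generation 5 were compared with those of generation 3 within one genotype, in which both copies of p53 carried the change N236S. The comparison used the 3 libraries of G5TM and the 3 of G3TM, which are 6 of the 15 libraries of the series, and those 6 were chosen by their labels alone. TM stands for mTR-/-, Wrn-/-, p53 N236S/N236S: the cells had neither mTR, now named Terc, which is the RNA that telomerase copies, nor Wrn, a DNA helicase whose human counterpart is lost in Werner syndrome, and the same holds for every other group of the series. G3DM and G5DM, used below only to set the generation difference beside that with normal p53, were mTR-/-, Wrn-/-, p53 WT, with 2 and 3 libraries. The fibroblasts came from embryos of day 13.5 and were grown in medium with 10% serum at 5% CO2 and 3% O2. No label says whether the 3 libraries of a group came from separate embryos or cultures, so the p-values measure the spread between these libraries, which may be in part technical; by the sex-linked genes given below, G5TM_1 came from another embryo than G5TM_2 and G5TM_3. Libraries are named below by group and replicate number (G3TM_1 to G5TM_3). Expression is given in FPKM, fragment numbers that the authors scaled for gene length and library size, and differences are G5TM minus G3TM on the log2(FPKM + 1) scale, which understates changes of low genes.

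Mice without telomerase lose telomere sequence with each generation of breeding, and late generations show the consequences of short telomeres. In telomerase-deficient mice, loss of Wrn brings out features of Werner syndrome, a disease of early ageing. Short telomeres activate p53, which induces Cdkn1a, and Cdkn1a in turn keeps the DREAM complex on the promoters of cell cycle genes, whereas the related MMB complex activates the later of those genes. N236S is a point mutation of p53, and the series title ties it to DREAM, MMB and telomere DNA replication. Cultures of embryonic fibroblasts are made from minced embryos and can hold other cell types besides fibroblasts.

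The 6 libraries held 17448591 to 26292656 reads, recovered from the FPKM steps, and 19758 to 21667 genes above 0. Their FPKM summed to 304918 to 425814, above the 221056 to 301713 of the other 9 libraries, and the part of this in the comparison with DM was not tested. The targeted genes did not contradict the labels: Terc was listed at 0 in all 6 and Wrn at 0.0447 to 0.196 FPKM, although a polyA library is a poor check of Terc, whose RNA carries no poly(A) tail. Trp53 itself was measured at 52.1, 95.5 and 96.6 FPKM in G3TM and 78.7, 53.2 and 91.3 in G5TM. Of the fibroblast markers, Col1a1 (973 to 2022 FPKM), Col1a2 (200 to 347), Thy1 (86.1 to 214) and Pdgfra (9.21 to 14.6) were present in every library, whereas Dcn (0.842 to 1.85) and Lum (0.908 to 1.85) were low in all. In a principal component analysis of the 6 libraries the first component took 42.5% of the variance and did not separate the generations. G3TM_1 lay at -35.3 on it, far from G3TM_2 (23.4) and G3TM_3 (23.6), and the G5TM libraries lay between them at -0.94, -22.9 and 12.1. Across the 11634 genes tested, the highest rank correlation of any pair (Spearman's rho, a description across genes, which are not replicates) joined the generations, 0.981 between G3TM_3 and G5TM_3, and the lowest lay within G3TM, 0.936 between G3TM_1 and G3TM_2. The sexes were unbalanced: the 3 G3TM libraries and G5TM_1 expressed the Y-linked genes Ddx3y (0.836 to 1.42 FPKM), Eif2s3y, Kdm5d and Uty and listed Xist at 0, whereas G5TM_2 and G5TM_3 listed those 4 genes at 0 and Xist at 2.45 and 3.61.

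Few genes differed between the generations, and nearly all of those were copies of other genes. A gene was tested where 2 or more of the 6 libraries reached 1 FPKM, and of the 11634 such genes 7 were called (limma, Benjamini-Hochberg adjusted p under 0.05), which is 0.0602% of those tested. There were 6 higher in G5TM (0.0516%) and 1 lower (0.0086%). All but 1 of the 7 are annotated as processed pseudogenes, copies of a mature mRNA put back into the genome by reverse transcription, and 660 of the genes tested were of that kind. None of the 10433 protein-coding genes tested was called by limma, and 196 of them had an unadjusted p under 0.05 (292 of all genes). The 7 genes fall outside the rule by which the other genes below were named, and were singled out after their values were seen.

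The pseudogenes that rose most resemble their parent genes almost letter for letter, which bears on how any read can be assigned, so a stretch of 120 bases of 3 of them is shown with the same stretch of the parent's coding sequence, in capitals where the pair differ. Gm10020 (chr15:52477617-52478228, minus strand, outside other genes) is a copy of Rpl15, a protein of the large ribosomal subunit, and matched it at 99.7% of 612 bases with 2 mismatches, both inside the stretch shown (chr15:52477991-52478110). Gm9825 (chr6:7982541-7983383, minus strand, outside other genes) is a copy of Rnps1, an RNA-binding protein of the exon junction complex, and matched it at 99.4% of 843 bases with 5 mismatches, 2 of them inside the stretch (chr6:7982825-7982944). Atp6v0c-ps2 (chr6:37806086-37806550, plus strand, outside other genes) is a copy of Atp6v0c, the proton-channel subunit of the vacuolar ATPase, and matched it at 99.8% of 465 bases with 1 mismatch (stretch chr6:37806136-37806255). Sequences and coordinates are those of GENCODE vM21 on GRCm38, to which the table's coordinates were equal for 98.3% of identifiers.
Gm10020: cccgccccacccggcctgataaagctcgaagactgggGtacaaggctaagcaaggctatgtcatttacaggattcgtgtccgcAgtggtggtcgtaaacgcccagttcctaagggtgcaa
Rpl15: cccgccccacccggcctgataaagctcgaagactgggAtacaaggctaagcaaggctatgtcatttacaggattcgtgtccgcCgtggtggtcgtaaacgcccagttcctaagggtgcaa
Gm9825: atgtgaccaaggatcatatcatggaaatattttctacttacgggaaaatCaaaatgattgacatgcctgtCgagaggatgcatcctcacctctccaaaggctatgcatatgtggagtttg
Rnps1: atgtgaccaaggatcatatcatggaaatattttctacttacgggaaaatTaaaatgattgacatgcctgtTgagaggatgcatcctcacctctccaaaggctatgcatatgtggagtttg
Atp6v0c-ps2: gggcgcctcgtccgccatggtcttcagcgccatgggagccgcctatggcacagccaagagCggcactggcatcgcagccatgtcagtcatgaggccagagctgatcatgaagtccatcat
Atp6v0c: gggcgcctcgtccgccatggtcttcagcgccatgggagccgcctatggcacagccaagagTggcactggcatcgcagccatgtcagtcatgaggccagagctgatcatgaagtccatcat

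Gm10020 was measured at 0.435, 1.78 and 2.90 FPKM in the G3TM libraries and at 391, 234 and 406 in the G5TM libraries. The groups were far apart, and the rise was 7.07 log2 units (SE 0.37, adjusted p = 2.7e-05, limma). Atp6v0c-ps2 stood at 3.76, 7.16 and 10.3 FPKM in G3TM and at 176, 272 and 180 in G5TM, and rose by 4.76 (SE 0.33, adjusted p = 0.000214, limma). Here too no G3TM library came near any G5TM library. Gm9825 was measured at 0.902, 1.21 and 2.42 FPKM in G3TM and at 50.4, 61.4 and 52.8 in G5TM, and rose by 4.52 (SE 0.24, adjusted p = 2.7e-05, limma). Its 3 G5TM values were the most alike among the called pseudogenes. Rpl15-ps2 (chr9:72060937-72061549, plus strand), a further copy of Rpl15 that lies in an intron of Tcf12 on the opposite strand, was measured at 2.23, 6.76 and 5.91 FPKM in G3TM and 53.6, 23.6 and 52.4 in G5TM. It rose by 2.90 (SE 0.39, adjusted p = 0.0397, limma), and like Gm10020 it was lowest of the G5TM libraries in G5TM_2.

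Rps2-ps6 (chr14:76236691-76237545, minus strand) is a copy of Rps2, a protein of the small ribosomal subunit. It was measured at 1.42, 2.94 and 4.31 FPKM in G3TM and at 21.7, 20.8 and 12.3 in G5TM, and rose by 2.34 (SE 0.31, adjusted p = 0.0397, limma). Gm37416 (chr2:16023108-16023425, minus strand, in an intron of Malrd1 on the other strand) is a transcript still to be experimentally tested according to its annotation, and matches the noncoding gene AI506816 at 91.2% of its 318 bases. It was measured at 2.03, 1.495 and 0.828 FPKM in G3TM and at 17.1, 12.5 and 18.9 in G5TM, a rise of 2.82 (SE 0.24, adjusted p = 0.00106, limma). AI506816 itself varied without regard to generation: it stood at 121, 146 and 72.9 FPKM in G3TM and at 63.7, 0.763 and 141 in G5TM. Gm9826 (chr1:7177739-7179037, plus strand), a copy of Ahcy, the enzyme that hydrolyses S-adenosylhomocysteine, was the called gene that fell. It stood at 7.93, 14.3 and 9.17 FPKM in G3TM and at 2.17, 1.36 and 2.06 in G5TM, and fell by 1.98 (SE 0.24, adjusted p = 0.0205, limma).

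**Figure D1:**
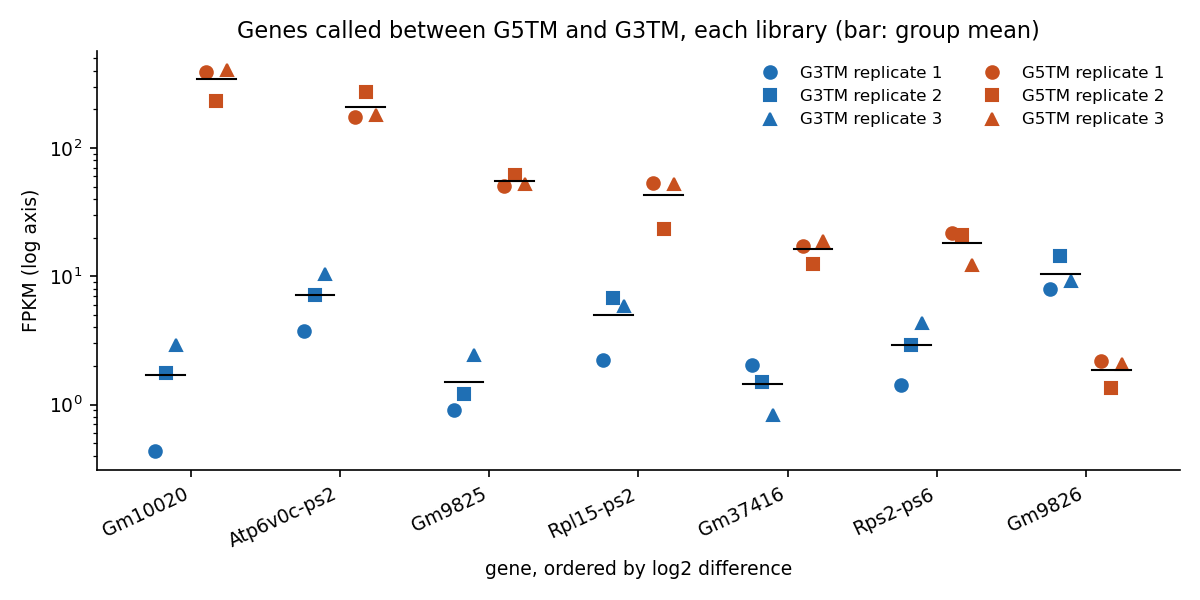
FPKM on a log axis of the 7 called genes in each of the 6 libraries (blue G3TM, orange G5TM; circle, square and triangle for replicates 1, 2 and 3), with a bar at each group mean of 3 libraries. In every gene the 2 groups are apart, from 0.435 to 2.90 against 234 to 406 FPKM in Gm10020 down to 7.93 to 14.3 against 1.36 to 2.17 in Gm9826, the gene that fell.

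The calls depend unequally on the processing. Gm10020 was called in all 15 alternative settings tried. Gm9825 lost the call in 1 of them (all 15 libraries fitted together, adjusted p = 0.196, limma), Atp6v0c-ps2 in 2 (all 15 libraries, 0.333, and a term for the sex of the embryo, 0.0536) and Gm37416 in 2 (no filter on low values, 0.0843, and the sex term, 0.0842). With the sex term, which the unbalanced sexes make imprecise, Rps2-ps6, Rpl15-ps2 (both 0.548) and Gm9826 (0.977) were not called either, so that Gm10020 and Gm9825 were the 2 of the 7 still called. Rps2-ps6 and Rpl15-ps2 each lost it in 9 and Gm9826 in 6, which for Gm9826 included leaving out any G5TM library (adjusted p = 0.0812 to 0.145, limma). Rps2-ps6 was no longer called without G3TM_1, G5TM_1 or G5TM_2 (adjusted p = 0.125, 0.363 and 0.151, limma). Rpl15-ps2 was no longer called without G3TM_1, G5TM_1 or G5TM_3 (adjusted p = 0.155, 0.363 and 0.217, limma). The count over all genes was 17 without G3TM_3 and 4 without G5TM_1.

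Of the parents of the called pseudogenes, Rpl15, Rnps1, Atp6v0c and Ahcy had lower mean levels in G5TM, and none was called. Rps2 differed by -0.17 (SE 0.42, adjusted p = 1, limma), a sign that turned without G3TM_2 (0.0997) or G5TM_2 (0.0576). Rpl15 was measured at 244, 573 and 499 FPKM in G3TM and at 288, 169 and 274 in G5TM, a difference of -0.79 (SE 0.37, adjusted p = 1, limma) with overlapping groups. Rnps1 stood at 86.6, 115 and 130 FPKM in G3TM and at 71.4, 25.9 and 79.1 in G5TM, a difference of -1.03 (SE 0.40). Atp6v0c stood at 12.0, 24.4 and 24.3 FPKM in G3TM and at 11.3, 2.04 and 10.9 in G5TM, a difference of -1.41 (SE 0.50). For Rnps1 and Atp6v0c the groups did not overlap, and G5TM_2, where the 2 pseudogenes were highest, had the lowest parent values. Other copies of Rpl15 moved with its called pseudogenes: Rpl15-ps3 was measured at 2.23 to 9.21 FPKM in G3TM and 18.5 to 34.7 in G5TM, and Gm4294 at 44.4 to 115 and 121 to 243. Copies of Rps2 were mixed, with means of 214 FPKM in G3TM and 345 in G5TM for Rps2-ps13 but 86.3 and 81.2 for Gm45855. Gm4737, annotated as protein-coding and 99.2% identical to Gm9826, did not fall with it. It stood at 26.6 to 111.5 FPKM in G3TM and at 108 to 178 in G5TM, whereas Ahcy stood at 97.0, 194 and 125 against 69.5, 47.0 and 85.4. The Ahcy groups were separate and its difference was -1.01 (SE 0.32, adjusted p = 1, limma). Among all genes tested, 2.95% were lower in G5TM without overlap, so the separate groups of Rnps1, Atp6v0c and Ahcy are given as values.

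To set copies and parents on one scale, FPKM was multiplied by gene length in kilobases and summed over each pseudogene, its parent and every other copy that matched at least 95% of its letters. Of the sum of the Rpl15 family, Gm10020 took 0.042%, 0.073% and 0.14% in the G3TM libraries and 20.7%, 21.7% and 22.5% in G5TM. Of the Rnps1 pair, Gm9825 took 0.46%, 0.46% and 0.81% in G3TM and 23.7%, 51.0% and 22.7% in G5TM. Of the Atp6v0c pair, Atp6v0c-ps2 took 4.11%, 3.87% and 5.52% in G3TM and 68.1%, 94.8% and 69.4% in G5TM. No G5TM share overlapped a G3TM share. These pseudogenes were picked because they were called, and their own values are the upper part of each share. The separation of the shares therefore followed from the choice and is no further finding. The sums did overlap: that of the Rpl15 family was 634, 1492 and 1316 FPKM times kilobases in G3TM and 1156, 662 and 1106 in G5TM, and that of the Rnps1 pair was 167, 221 and 252 against 180, 101 and 196. The Rps2 and Ahcy families overlapped likewise. The Atp6v0c pair was the exception, at 42.5, 86.0 and 87.1 in G3TM and 120, 133 and 121 in G5TM, with the ratio of the mean sums at 0.79 on the log2 scale.

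The same shares could be read in the 9 libraries outside the comparison, and they did not follow generation alone there. Atp6v0c-ps2 took 83.2% to 88.3% of its pair in the 3 G5DM libraries, 45.8% in G1DM_1 and 50.0% in G3DM_1, but 2.76% in G1DM_2, 2.55% in G3DM_2 and 2.71% to 2.77% in the 2 G1TM libraries. Gm9825 was high in the same libraries, at 56.0% to 59.6% in G5DM, 24.8% in G1DM_1 and 27.2% in G3DM_1, and was at most 1.26% in the others. Gm10020 took 5.97% in G1DM_1, 5.93% in G1DM_2 and 5.99% in G3DM_1 and at most 0.060% in the others outside the comparison. G3DM_1 and G3DM_2, libraries of one group, thus differed in all 3 shares. Of the parents, 3 lie near each other on chromosome 17, Atp6v0c at chr17:24163866-24169702, Rnps1 at chr17:24414675-24425895 and Rps2 from chr17:24718116, while Rpl15 lies on chromosome 14 and Ahcy on chromosome 2. How the authors' counting assigned reads among near-identical genes was not tested.

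**Figure D2:**
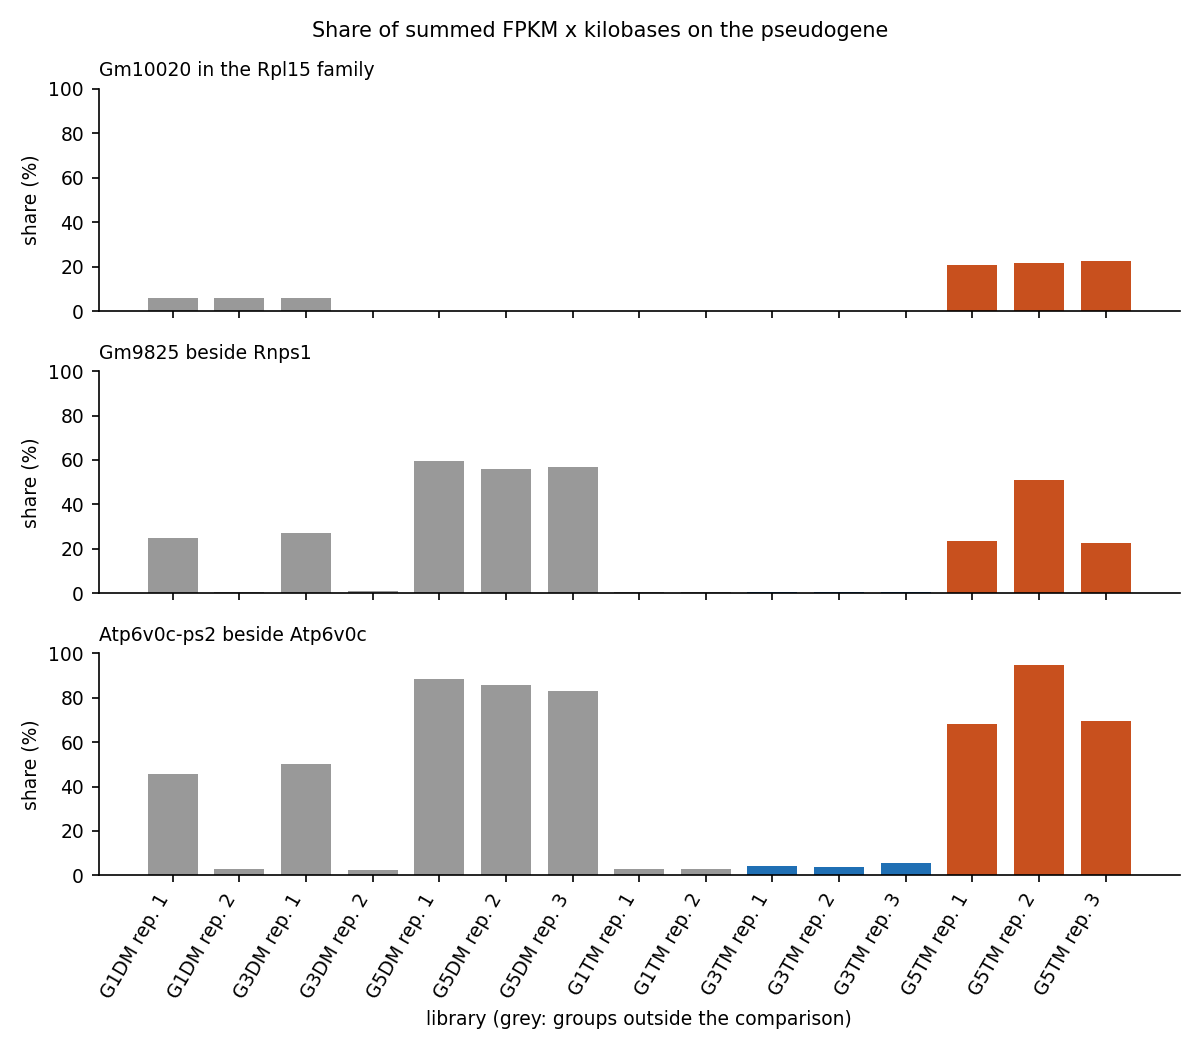
Share in percent of the summed FPKM times kilobases that fell on the pseudogene, for Gm10020 within the Rpl15 family, Gm9825 beside Rnps1 and Atp6v0c-ps2 beside Atp6v0c, in each of the 15 libraries (blue G3TM, orange G5TM, grey the other groups). The G5TM bars stand at 20.7% to 22.5%, 22.7% to 51.0% and 68.1% to 94.8%, the G3TM bars at 5.52% or less, and in the lower 2 panels the first libraries of G1DM and G3DM (24.8% to 50.0%) differ from the second (2.76% or less).

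Among the protein-coding genes none passed the test, and the genes nearest to it are given as values. Without any overlap of the 3 and 3 libraries, 312 genes were higher in G5TM (2.68% of those tested) and 343 were lower (2.95%), 241 and 311 of them protein-coding. The 12 protein-coding genes in each direction with the smallest unadjusted p, separate groups and a mean of at least 5 FPKM in the higher group are described here. Gchfr, the feedback regulator of the enzyme that starts tetrahydrobiopterin synthesis, was measured at 16.6, 7.79 and 19.5 FPKM in G3TM and at 48.0, 54.9 and 37.2 in G5TM. Its difference was 1.68 (SE 0.32, adjusted p = 0.314, limma), and without G3TM_3 it would have been called (adjusted p = 0.0375, limma). Gm21887, listed on chromosome X (chrX:170009659-170019281), had a similar difference of 1.60 (SE 0.30, adjusted p = 0.284, limma). It was measured at 11.8, 15.3 and 8.33 FPKM in G3TM and at 29.1, 30.9 and 54.9 in G5TM. That G5TM_1, which like G3TM expressed Y-linked genes, lay above all 3 of G3TM followed from the choice, which required separate groups.

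Replication-dependent histone genes were 3 of the 12. Hist1h2bc was measured at 12.1, 17.9 and 19.1 FPKM in G3TM and at 37.6, 44.5 and 30.4 in G5TM, a difference of 1.16 (SE 0.24, adjusted p = 0.540, limma). Hist1h4i stood at 10.0, 17.8 and 20.1 against 46.8, 40.6 and 29.6 FPKM, and Hist1h2ao at 0.634, 2.12 and 3.98 against 8.17, 4.94 and 5.33. In all 3 the G3TM_1 library was the lowest of the 6. Histone mRNA of this kind mostly lacks a poly(A) tail, and histone genes of a cluster share much of their sequence, so their values in polyA libraries are uncertain. Cebpa, a transcription factor of fat and liver cells and of myeloid cells, stood at 7.60, 11.3 and 10.5 FPKM in G3TM and at 15.2, 20.7 and 24.3 in G5TM, a difference of 0.96 (SE 0.23, adjusted p = 1, limma). Spp1, the secreted bone matrix protein osteopontin, stood at 73.0, 70.6 and 52.9 against 137, 146 and 86.4 FPKM, a difference of 0.88 (SE 0.27). Sord, which oxidises sorbitol, stood at 7.76 to 10.4 against 13.3 to 19.7 FPKM, and the urea transporter gene Slc14a1 at 4.19 to 5.98 against 7.73 to 13.6. The remaining genes, Itgb7 (an integrin beta chain), Acp1 (a small phosphatase) and B9d1 (a protein of the ciliary transition zone), differed by 0.61 to 0.88.

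On the lower side no gene was called, and the 12 are likewise given as values. Ntn4, a netrin that binds laminin in basement membranes, was measured at 9.17, 5.43 and 7.66 FPKM in G3TM and at 3.16, 2.68 and 4.47 in G5TM, a difference of -0.92 (SE 0.23, adjusted p = 1, limma). Loxl2, which crosslinks collagen, stood at 82.5, 91.5 and 75.9 FPKM against 36.9, 56.9 and 54.4, a difference of -0.76 (SE 0.24). Wisp1, a matricellular protein, stood at 25.5, 18.2 and 17.6 against 11.3, 12.6 and 12.7 FPKM, a difference of -0.68 (SE 0.21). The integrin gene Itgb3 stood at 9.72, 15.1 and 13.8 against 6.38, 7.61 and 9.12 FPKM, and F2rl1, a protease-activated receptor, at 9.32, 13.2 and 14.1 against 7.82, 6.55 and 7.28. Separate groups were a condition of the choice, so their separation is no finding. Lrrc15, a surface protein of matrix-rich fibroblasts, stood at 28.0, 29.9 and 37.4 against 26.6, 13.2 and 16.4 FPKM, so that G5TM_1 came close to G3TM. Gfra1 (a coreceptor of glial cell line-derived neurotrophic factor), Nrep, Pygb (a glycogen phosphorylase), Ak4 (a mitochondrial adenylate kinase) and Gpr176 differed by -0.65 to -0.81, and Ahcy is described above with its copies.

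**Figure D3:**
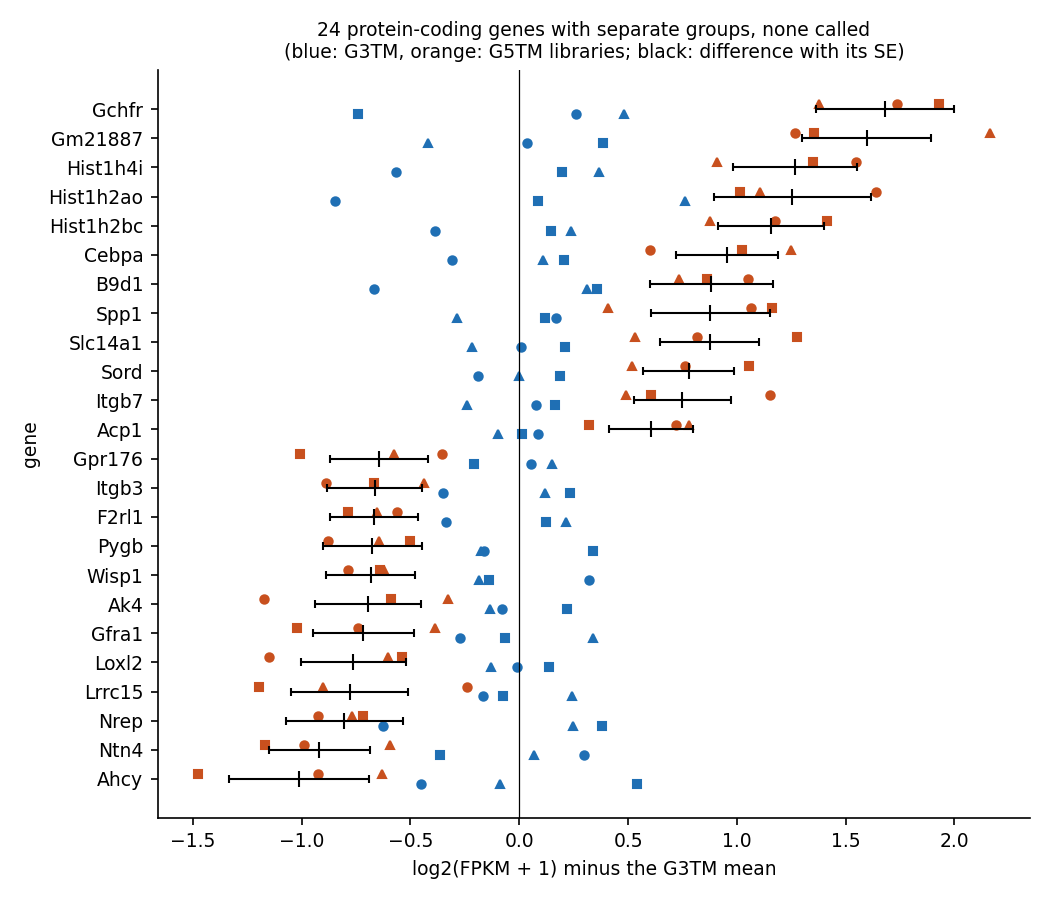
The 24 protein-coding genes just described: log2(FPKM + 1) of each library minus the G3TM mean of the gene, with blue points for G3TM and orange for G5TM (circle, square and triangle for replicates 1, 2 and 3) and the difference with its standard error in black. The groups are apart in each gene, as the choice required, with differences from 1.68 (Gchfr) to -1.01 (Ahcy). In Lrrc15, Itgb3 and Nrep, among others, a library of one group lies close to the other group.

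Genes of the p53 pathway showed no called difference between the generations. Of the p53-activated list, 35 of 41 members were tested and none was called by limma, with 1 at an unadjusted p under 0.05; their median difference was -0.07, against -0.01 over all genes tested. Trp53 differed by -0.11 (SE 0.31, adjusted p = 1, limma), a sign that turned in 4 of the alternative settings. Cdkn1a, the cell cycle inhibitor induced by p53, was measured at 6.13, 29.6 and 16.2 FPKM in G3TM and at 7.38, 8.03 and 12.8 in G5TM, a difference of -0.61 (SE 0.45, adjusted p = 1, limma) that was -0.13 without G3TM_2 and -1.18 without G3TM_1. Within G3TM the gene varied more than between the group means. Mdm2, which targets p53 for degradation and is induced by it, ran the other way among the G3TM libraries, at 7.79, 2.33 and 2.88 FPKM, with 4.80, 5.40 and 3.50 in G5TM. Cdkn2a, the locus of p16 and p19ARF, stood at 125, 32.8 and 27.6 FPKM in G3TM and at 114, 144 and 34.9 in G5TM, a difference of 0.76 (SE 0.62, adjusted p = 1, limma) that ranged from 0.37 without G3TM_3 to 1.44 without G3TM_1. It was high in G3TM_1, G5TM_1 and G5TM_2 and low in the other 3 libraries, across the generations, and Cdkn2b, its neighbour encoding p15, was highest in the same 3 (88.4, 108 and 110 FPKM against 46.2 to 55.8). Of 29 genes of senescence and secretory factors, 18 were tested, none was called by limma and 1 had an unadjusted p under 0.05; Il6 was at most 0.17 FPKM in every library.

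The genes named by the series title did not differ detectably either. None of the 14 DREAM and MMB subunits was called or had an unadjusted p under 0.05 (limma), and their median difference was -0.08. Mybl2, the MMB subunit B-Myb, stood at 19.05, 32.2 and 34.0 FPKM in G3TM and at 22.3, 10.6 and 30.9 in G5TM, a difference of -0.48 (SE 0.37) that was -0.07 without G5TM_2 and -0.80 without G5TM_3. Foxm1, its partner in late cell cycle transcription, stood at 29.3, 30.5 and 35.4 against 25.8, 20.4 and 32.1 FPKM, a difference of -0.29 (SE 0.23). Both were lowest in G5TM_2 and overlapped between the groups. Of the cell cycle targets, 58 of 60 genes of G2/M and 53 of 54 of G1/S were tested. None was called by limma or had an unadjusted p under 0.05, and the medians were -0.11 in both. Of the members that reached 5 FPKM, G5TM_2 was the lowest library in 36 of 48 for G2/M and in 35 of 42 for G1/S. The share of all genes lowest in G5TM_2 was not counted. By the same measure it was lowest in 8 of 9 smooth muscle genes but in 2 of 22 of the fibroblast and matrix list. In telomere DNA replication 31 of 32 genes were tested, and in the group of shelterin and telomerase 13 of 16, again with none called and none at an unadjusted p under 0.05 (limma), and medians of -0.02 and 0.00. Pole, a replicative DNA polymerase, at 6.61, 6.50 and 5.63 against 4.94, 3.60 and 5.54 FPKM, and Smg6, at 6.40 to 7.06 against 5.24 to 6.19, were the members of these last lists whose groups were separate. Of all genes tested, 2.95% were lower in G5TM without overlap. Homologous recombination genes (26 of 32 tested, median -0.06, none called by limma and none at an unadjusted p under 0.05) had the smallest spread between libraries of any list, with a median residual SD of 0.18 against 0.27 over all genes.

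Of all 35 lists together, 633 genes were tested, none was called by limma and 21 (3.32%) had an unadjusted p under 0.05, against 2.51% of all genes tested. The share was 6.80% in the lineage lists (14 of 206 genes) and 1.64% in the pathway lists (7 of 427). In the fibroblast and matrix list, 25 of 28 members were tested and 5 were lower in G5TM without overlap and none higher, against 2.95% and 2.68% of all genes; none was called by limma and 5 had an unadjusted p under 0.05. The 5 with separate groups were all collagens: Col1a1 (1272, 2022 and 1508 FPKM against 973, 1128 and 1203), Col1a2 (310, 347 and 274 against 252, 224 and 200), Col3a1 (114, 161 and 114 against 72.8, 112 and 86.9), Col5a1 (219, 271 and 247 against 131, 158 and 202) and Col6a3 (63.6, 65.9 and 81.1 against 35.7, 48.9 and 58.4). They were named after their values were seen. Ly6a, a surface marker of mesenchymal progenitors, was on the other side, at 62.7, 30.2 and 38.6 against 88.2, 119 and 39.2 FPKM. Its groups overlapped. The median difference of the whole list was -0.17.

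Genes that mark skeletal muscle and macrophages varied more among the libraries of one generation than genes in general. The median residual SD of log2(FPKM + 1), the spread between libraries of one group, was 0.27 over all genes tested, and 95% of genes were at or under 0.60. It was 1.11 for the 24 skeletal muscle genes tested and 1.35 for the 16 macrophage genes. None of either list was called (limma), with 1 muscle gene and no macrophage gene at an unadjusted p under 0.05, and the median differences were -0.80 and -0.56. In bulk RNA, more cells of a type and more of its RNA in each cell cannot be told apart, and neither could be tested here.

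**Figure D4:**
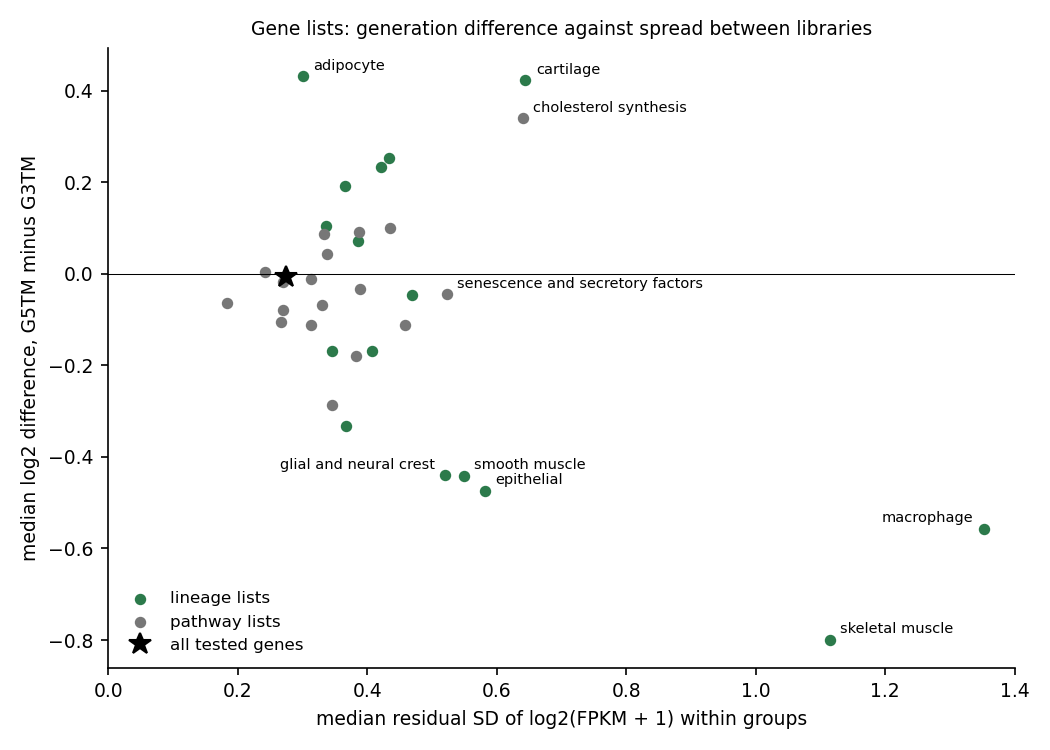
Median difference of each gene list (log2, G5TM minus G3TM) against the median residual SD of its tested members, with lineage lists in green, pathway lists in grey and a star for all 11634 genes tested. Skeletal muscle (-0.80, 1.11) and macrophage (-0.56, 1.35) lie far to the right of the other lists, and all genes together lie at -0.01 and 0.27.

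Skeletal muscle genes were highest in G3TM_2. Myog, a transcription factor that drives myoblasts into differentiation, was measured at 0.737, 61.6 and 15.7 FPKM in the G3TM libraries and at 1.97, 2.87 and 11.0 in the G5TM libraries. Myod1, which sets the muscle lineage, followed with 0.184, 21.8 and 5.73 against 1.28, 1.04 and 3.74 FPKM. The order of the libraries was thus G3TM_2, G3TM_3, G5TM_3, then G5TM_1 and G5TM_2, with G3TM_1 last. The contractile genes had the same order at the top: Actc1, the cardiac alpha-actin that embryonic muscle also makes, stood at 2.30, 147 and 45.8 FPKM in G3TM and at 6.70, 7.76 and 33.2 in G5TM. Mylpf, a fast myosin light chain, stood at 2.29, 77.0 and 35.3 against 7.10, 5.40 and 25.3, and the troponin gene Tnnc1 at 2.08, 60.4 and 25.4 against 5.12, 2.65 and 19.8. Of the 24 genes tested, G3TM_1 was below both other G3TM libraries in 23 and G5TM_3 was above both other G5TM libraries in 24. Among the 19 members that reached 5 FPKM, G3TM_2 exceeded G3TM_3 in 18, by a median ratio of 2.29, and G3TM_3 exceeded G5TM_3 in all 19, by a median ratio of 1.38. Mymk and Mymx, the membrane proteins by which myoblasts fuse, were present in G3TM_2 at 12.7 and 8.27 FPKM, with Mymx at 0 in G3TM_1. The differences between the generation means were uncertain beside this spread, for example -1.24 (SE 1.05, adjusted p = 1, limma) for Myog, which was -0.06 without G3TM_2 and -2.65 without G3TM_1, and -1.10 (SE 1.14) for Actc1, which was 0.09 without G3TM_2.

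Macrophage genes took another order, with G3TM_3 highest. Lyz2, the lysozyme of myeloid cells, was measured at 2.22, 27.9 and 233 FPKM in G3TM and at 14.3, 18.8 and 74.9 in G5TM. C1qa, a chain of complement C1q, stood at 0.402, 13.1 and 64.5 against 2.95, 3.18 and 12.4 FPKM, with C1qb and C1qc likewise highest in G3TM_3. Csf1r, the receptor on which macrophages depend, stood at 0.374, 3.27 and 12.5 against 0.928, 1.29 and 5.07, and Tyrobp, an adaptor of myeloid receptors, at 0.171, 4.79 and 26.8 against 1.56, 1.90 and 6.43. All 14 members that reached 5 FPKM were highest in G3TM_3 and lowest in G3TM_1. Over these 14 the ratio of G3TM_3 to G5TM_3 had a median of 3.10 and that of G3TM_3 to G3TM_2 a median of 4.17, with every ratio above 1. Muscle and macrophage genes therefore ranked the libraries differently: G3TM_2 came first for one and G3TM_3 for the other, while G3TM_1 came last for all 14 macrophage genes and for 15 of the 19 muscle genes, with G5TM_2 last for the other 4. The summed FPKM of the 22 macrophage genes was 9.6 to 523 in G3TM, 38.4 to 158 in G5TM and 10.8 to 105 in the other 9 libraries, and that of the 39 muscle genes 55.7 to 671, 57.4 to 223 and 48.4 to 353.

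**Figure D5:**
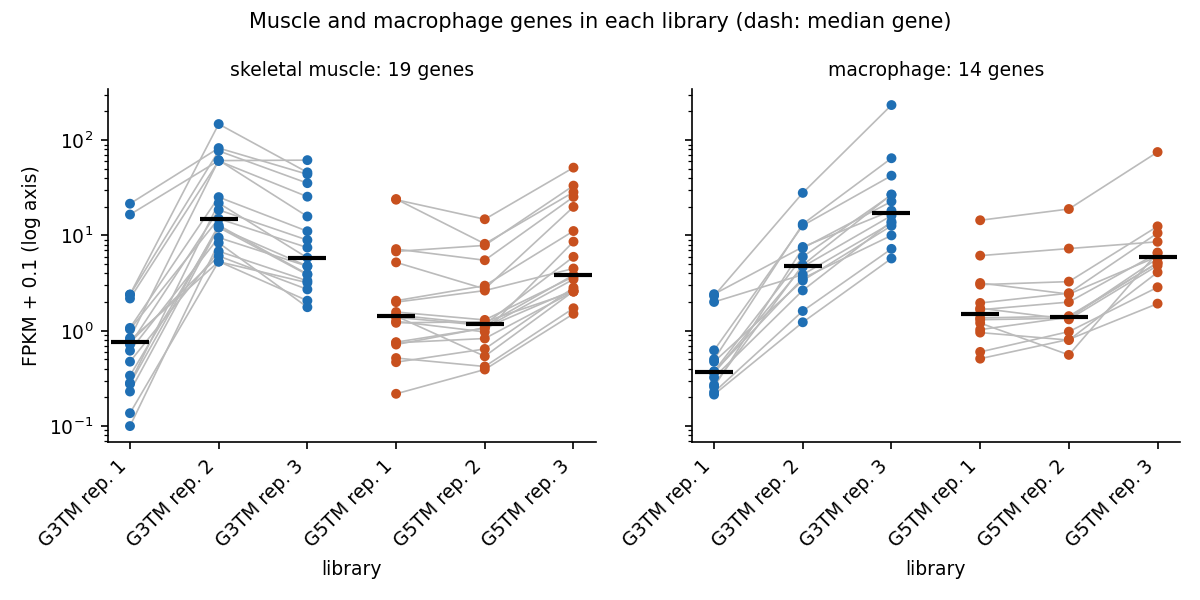
FPKM plus 0.1 on a log axis of the 19 skeletal muscle and 14 macrophage genes that reached 5 FPKM, in each of the 6 libraries (blue G3TM, orange G5TM), with grey lines joining the values of one gene within a group and a dash at the median gene. Of the muscle genes 18 peak in G3TM_2, with 15 lowest in G3TM_1 and 4 in G5TM_2, and all 14 macrophage genes peak in G3TM_3 and are lowest in G3TM_1, and in G5TM both are highest in G5TM_3.

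For the skeletal muscle and macrophage lists, the bases upstream of the start sites were searched for 1 short motif per list. The windows were those RefSeq gives on GRCm38 (250 bases before the start, both strands). Members with a window were counted whether or not they varied here, and 12 of the 39 muscle genes stayed under 1 FPKM in all 6 libraries. The letters CAGCTG, an E-box of the kind MyoD binds, were present in 12 of the 28 muscle genes with a window (42.9%) and in 12.8% of all 27025 windows. The letters GAGGAAG, which fit the core bound by the myeloid factor PU.1, were present in 6 of 16 macrophage genes (37.5%) and in 10.4% of all windows. The windows of Mylpf (chr7:127211358-127211607, plus strand) and C1qc (chr4:136892915-136893164, minus strand), 2 of the genes with widest range, are shown with the match in capitals, for C1qc on the opposite strand. A match describes the letters and is not evidence of binding. The lists and motifs were both picked by lineage, and what made the lists vary between libraries was not tested. No other motif was searched.
Mylpf: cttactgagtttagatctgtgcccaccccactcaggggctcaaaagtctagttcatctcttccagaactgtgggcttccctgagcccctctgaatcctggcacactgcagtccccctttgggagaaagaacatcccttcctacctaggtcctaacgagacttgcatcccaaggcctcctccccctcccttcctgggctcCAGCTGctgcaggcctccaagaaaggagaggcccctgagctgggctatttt
C1qc: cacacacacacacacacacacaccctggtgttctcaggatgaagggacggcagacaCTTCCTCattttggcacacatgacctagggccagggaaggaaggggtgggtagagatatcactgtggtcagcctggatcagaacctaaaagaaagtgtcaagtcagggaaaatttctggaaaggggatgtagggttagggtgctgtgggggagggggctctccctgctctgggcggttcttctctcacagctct

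Other lineages varied less. Smooth muscle genes were highest in G3TM_3 and lowest in G5TM_2 in 8 of 9 members that reached 5 FPKM: Acta2, smooth muscle actin, ranged from 911 FPKM in G5TM_2 to 3313 in G3TM_3, and Actg2 from 50.6 to 237 in the same libraries. Of the 11 tested, none was called and none had an unadjusted p under 0.05 (limma), with a median of -0.44. Cartilage genes leaned to G5TM_3: Col2a1, the main collagen of cartilage, was measured at 88.6, 157 and 56.6 FPKM in G3TM and at 83.7, 197 and 220 in G5TM, and Acan, its large proteoglycan, at 6.94, 19.4 and 8.59 against 4.61, 10.2 and 22.1. Of the 9 tested, none was called and none had an unadjusted p under 0.05 (limma), and the groups overlapped in each. Scx, a transcription factor of tendon, stood at 11.1, 14.9 and 7.41 against 17.6, 32.8 and 13.1 FPKM. Its difference was 0.82 (SE 0.34, adjusted p = 1, limma) with overlapping groups. Markers of red blood cells were near absent, with none of the 13 genes reaching 1 FPKM in any library and 6 at 0 in all. Endothelial markers were low as well: 13 of 16 stayed under 1 FPKM, including Pecam1 (0.02 to 0.31) and Cdh5 (0.12 to 0.73). Among the other lineage lists, Ngfr, a receptor of neural crest cells, ranged from 1.26 to 10.3 FPKM and Msln, of mesothelium, from 5.26 to 23.8.

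Genes of position along the body axis also separated single libraries and not the generations. Of 33 Hox genes tested none was called by limma and 2 had an unadjusted p under 0.05, and none had separate groups. Hoxc12, which is active at the tail end and in distal limb, was measured at 5.04 FPKM in G3TM_3 and 7.86 in G5TM_2, and at 0.346 or less in the other 4 libraries. Hoxc11, its neighbour, was highest in the same pair, at 4.20 and 6.30 FPKM. Hoxd13, of the digits and the hind end, stood at 15.3, 1.97 and 8.91 FPKM in G3TM and at 3.70, 12.2 and 8.32 in G5TM. Of the 19 Hox genes that reached 5 FPKM, 13 were highest in G5TM_2. In the list of limb and mesenchyme identity, Msx1 stood at 15.4, 4.58 and 24.8 against 24.6, 4.34 and 16.0 FPKM, low in G3TM_2 and G5TM_2. Twist1, at 124 to 130 against 136 to 164 FPKM, was higher in G5TM without overlap and Hand2, at 8.00 to 13.6 against 6.66 to 7.40, lower. Of all genes tested, 2.68% were higher and 2.95% lower without overlap. None of the 45 tested members of the limb and mesenchyme list was called or had an unadjusted p under 0.05 (limma).

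The 10 protein-coding genes with the largest spread within the groups were Lyz2, Actc1, C1qa, Myog, C1qb, Mylpf, Eno1b, Tnnc1, Pf4 and Rpl29. Of these, 8 belong to the muscle and macrophage lists, and the other 2 have near-identical copies. Eno1b, a copy of the glycolytic enolase gene Eno1 with 99.5% identity over 1652 bases, was measured at 48.7, 134 and 622 FPKM in G3TM and at 1052, 457 and 82.5 in G5TM. It took 2.12%, 2.38% and 16.5% of the enolase family sum in G3TM and 32.6%, 17.4% and 2.15% in G5TM, so its share differed within each generation. Rpl29, a ribosomal protein gene with 5 processed copies in the table, stood at 153, 6.09 and 10.8 FPKM in G3TM and at 10.1, 3.77 and 10.5 in G5TM. Its share of the family was 69.4% in G3TM_1 and at most 8.41% in the other 5 libraries. Gapdh, another glycolytic gene with many copies, was measured at 4.80 FPKM in G5TM_1 and at 59.3 to 130 in the other 5.

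Genes of cholesterol synthesis divided the libraries otherwise than by generation. All 23 genes of cholesterol synthesis and its control were lower in G3TM_3 and G5TM_3 than in G5TM_1 and G5TM_2. These pairs were picked after the values were seen, and the share of all genes with this order was not counted. The lowest of the 6 libraries was G5TM_3 in 9 of the 23, G3TM_3 in 8 and G3TM_1 in 6. The summed macrophage genes were highest in G3TM_3 and G5TM_3, at 523 FPKM in G3TM_3 and 158 in G5TM_3. They stood at 38.4 in G5TM_1, 44.4 in G5TM_2, 9.6 in G3TM_1 and 101 in G3TM_2. The summed cholesterol genes were 541 in G3TM_3, 529 in G5TM_3, 1177 in G5TM_1, 1228 in G5TM_2, 682 in G3TM_1 and 998 in G3TM_2. The part of the macrophage genes in the cholesterol values was not tested. Hmgcs1, which makes the precursor of mevalonate, was measured at 33.1, 16.1 and 11.1 FPKM in G3TM and at 46.8, 48.0 and 11.7 in G5TM, and Insig1, which senses sterols, at 51.8, 34.5 and 16.5 against 75.4, 72.7 and 19.9. None was called or had an unadjusted p under 0.05 (limma), the median difference was 0.34 and the median residual SD 0.64. Trib3, a target of the integrated stress response, stood at 16.0, 63.1 and 13.0 against 5.68, 22.0 and 7.56 FPKM, highest in G3TM_2 and next in G5TM_2. Asns, an amino acid synthetase of that response, at 57.1, 118 and 55.7 against 49.1, 52.8 and 40.1, was lower in G5TM without overlap, as was Atf3. Of the 20 tested genes of that list none was called by limma and 1 had an unadjusted p under 0.05. Nqo1, a target of NRF2, stood at 95.3, 93.9 and 104 against 182, 128 and 145 FPKM with separate groups. The other 13 tested members of its list overlapped. Of all genes tested, 2.68% were higher and 2.95% lower in G5TM without overlap, so these separate members are given as values. Glycolytic genes (20 of 20 tested, median -0.18) and mitochondrially encoded mRNAs (13 of 13 tested, median 0.10) had none called by limma and 2 and 0 genes at an unadjusted p under 0.05.

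Whether the generation difference was the same with normal p53 was tested as a difference of differences over G3DM, G5DM, G3TM and G5TM, among 13266 genes. It was called for 16 genes (0.121%), 14 higher and 2 lower in TM, by limma, with 1668 at an unadjusted p under 0.05. G5DM against G3DM in the same fit called 171 genes (1.29%). Prss22, a secreted serine protease gene, was measured at 1.81, 1.64 and 1.69 FPKM in G3TM and at 4.35, 4.12 and 4.41 in G5TM, and at 1.26 and 1.76 in G3DM and 0.335, 0.175 and 0.709 in G5DM. The TM difference exceeded the DM difference by 1.81 (SE 0.26, adjusted p = 0.0254, limma). Cebpa, at 7.60 to 11.3 FPKM in G3TM and 15.2 to 24.3 in G5TM, ran the other way in DM, with 5.54 and 8.39 in G3DM and 2.33, 1.84 and 2.45 in G5DM, and the difference of differences was 2.25 (SE 0.33, adjusted p = 0.0264, limma). Trpv4, a cation channel gene, had the same form at 1.36 to 2.03 against 2.86 to 3.77 FPKM in TM and 2.75 and 3.39 against 0.860 to 1.24 in DM (1.64, SE 0.26, adjusted p = 0.0354, limma). These 3 were named after their values were seen, and each kept its direction but lost the call when single libraries were left out: any of them except G5DM_1 and G5DM_3 for Prss22 (adjusted p = 0.0562 to 0.168, limma) and Cebpa (0.0599 to 0.182), and any except G5DM_1 for Trpv4 (0.0621 to 0.249). In most of the others the TM groups were alike and the DM groups apart, as for Hoxc10, at 6.37 to 7.73 and 7.28 to 16.4 FPKM in TM but 10.1 and 12.8 in G3DM and 0.029 to 0.847 in G5DM. Of the 7 genes called within TM, Gm10020 and Gm37416 were also called here, whereas Gm9825 and Atp6v0c-ps2 were not (2.18 and 1.88, adjusted p = 0.415 and 0.559, limma), and both were high in G5DM too, at 38.9 to 73.7 and 124 to 356 FPKM. This count rests on single libraries: it was 1658 without G5DM_1 (295 higher and 1363 lower in TM, so that the balance of directions turned), 17 without G5DM_3 and between 1 and 7 without any other of the 11.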

How the data were processed

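The authors deposited one table of FPKM for 54495 genes in 15 polyA RNA libraries, and no raw counts were used here. HISAT2 2.0.5, CASAVA 1.8, DESeq2 1.20.0, featureCounts 1.5.0-p3 and fastp are listed in the submitters' processing notes, without roles or order. How reads that match several places were handled and the genome build are not given in the sources used here. FPKM times gene length came out as whole multiples of one step per library within 0.05 for over 99.8% of values, which gave the read numbers printed in the report and no tests.

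From the table, log2(FPKM + 1) of the 6 libraries was fitted with limma 3.58.1 (R 4.3.3), with 2 group means, empirical Bayes moderation, an intensity trend and two-sided p-values adjusted by the Benjamini-Hochberg method over all 11634 genes tested, called at an adjusted p under 0.05. The difference of differences used the 11 libraries of 4 groups. The fit was tested on simulated data. The members and gene lists were chosen with earlier results of these data known. The text names 8 genes of the p53, DREAM and telomerase pathways, the 12 called protein-coding genes in each direction (filled up by the smallest p where fewer were called), the widest-ranging members of lineage lists, the 10 genes with the largest spread and the largest differences from DM. Copies were found with blastn 2.17.0 among GENCODE vM21 transcripts. Same-numbered libraries were compared by the correlation of their deviations from the group means (-0.06, -0.07 and 0.33), which cannot exclude pairing. No label gives a pairing, so the numbers were not taken to pair them. The alternatives changed the pseudocount, filter, scaling, libraries fitted, trend, block and sex term, and left out each library in turn.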

Additional observations from a re-analysis of the deposited data

Results flagged for a closer look

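The generation difference in TM differed from that in DM, by a test of the difference itself (limma), for 6 genes given here, the 4 with the largest positive differences and the 2 negative ones, among the called genes that reached a mean of 5 FPKM in a group. For Gm10020, the copy of Rpl15, the difference of differences was 9.98 log2 units (adjusted p = 0.0343), with G3DM at 68.7 and 0.338 FPKM, so that the 2 control libraries disagreed. It was no longer called without any one of the 6 TM libraries or of G5DM_2 and G5DM_3 (adjusted p = 0.068 to 0.145). For Gm37416 it was 5.80 (adjusted p = 6.1e-05), with 30.3 and 38.1 FPKM in G3DM and 2.44 to 4.70 in G5DM, the opposite of its course in TM. For Hoxc10, a posterior Hox gene, it was 3.77 (adjusted p = 0.0168), and it was no longer called without G3DM_2 or G5TM_3 (adjusted p = 0.0519 and 0.0633). For Cck, which encodes cholecystokinin, it was 3.05 (adjusted p = 0.0343), with 96.8 and 276 FPKM in G3DM against 10.9 to 18.2 in all 6 TM libraries. For Flrt3, a surface protein, it was -1.95 (adjusted p = 0.0254), with 1.24 and 1.81 FPKM in G3DM and 6.73 to 10.3 in G5DM against 1.71 to 2.45 in TM. For Ch25h, which hydroxylates cholesterol, it was -1.60 (adjusted p = 0.0254), with 1.43 and 1.496 FPKM in G3DM and 4.40 to 5.38 in G5DM against 1.35 to 2.47 in TM. Cck was no longer called without any one library except G3DM_1 and G5DM_1 (adjusted p = 0.0519 to 0.127), Flrt3 without any except G5DM_1 and G5DM_3 (0.0562 to 0.146), and Ch25h without any except G3TM_1, G5DM_1 and G5DM_3 (0.0731 to 0.151). In Cck, Flrt3 and Ch25h the TM groups overlapped or lay close, and the distance lay between the DM groups.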

How the results depend on the processing

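The count of 7 called genes fell to 3 with no filter on low values, 4 with all 15 libraries fitted together, 4 with the replicate block and 2 with a term for the sex of the embryo, and ranged from 4 to 17 when each library was left out (4 without G5TM_1, 17 without G3TM_3). The cause was not tested. No label pairs the libraries, and the correlations of same-numbered ones cannot settle whether they belong together, so the block is given only here. The count of 16 genes that differed from DM was 32 with all 15 libraries, 8 with a pseudocount of 0.1, 37 with quantile normalization and 3 with the replicate block, and ranged from 1 to 1658 when each library was left out. Trp53 and Rps2 changed sign with the sex term (0.0058 and 0.0768). Trp53 ranged from -0.40 to 0.11 over the libraries left out. Mdm2 ranged from -0.084 to 0.62, Actc1 from -2.66 to 0.088 and Rps2 from -0.54 to 0.0997 over the same. No other gene for which these alternatives were run changed sign. Depth limits genes near 1 FPKM, where one read is worth up to 0.0679 FPKM at 1 kilobase of length.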
